A study of Mus musculus with 4 samples.

Results

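Regulators that hold a preadipocyte back from, or move it into, adipocyte differentiation were followed in 3T3-L1 cells exposed to bilberry extracts or to a single anthocyanidin. The 10 genes are Dlk1, Gata2, Gata3, Sox9, Hes1, Ebf1, Ebf2, Stat5a, Stat5b and Foxo1, chosen by name with earlier results of these data known. All 10 were on the array, among 27595 named genes with a value on all 4 arrays, and they were read by 18 of its 41174 probes, on 27 spots.

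3T3-L1 is a mouse fibroblast-like line committed to the adipocyte lineage, and the label of the samples calls the cells adipocytes. Confluent cells were induced with 10 µg/ml insulin, 1 µM dexamethasone and 0.5 µM IBMX, as the submitters give it, and every culture received its additive in that medium. The 4 conditions were 0.1% DMSO alone, bilberry extracts at 100 µg/ml, delphinidin at 100 nM and cyanidin at 100 nM, each additive in 0.1% DMSO per the methods, and RNA was taken on day 2. Delphinidin and cyanidin are anthocyanidins, the pigment cores of bilberry anthocyanins, and delphinidin carries an additional hydroxyl group on its B ring. Each condition was 1 sample on 1 one-color Agilent array, so differences between conditions lack a replicate check, no p-value was computed and the DMSO array is shared by all ratios to DMSO. With 1 line and bulk RNA, fewer cells of a kind and less RNA per cell cannot be told apart.

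A level is given as log2 of the probe's processed signal over the 75th percentile of that array's signals, so that 0 is the 75th percentile. That percentile was 861 on the DMSO array, 576 with bilberry extracts, 1009 with delphinidin and 1016 with cyanidin. Levels were compared between arrays for a probe and never between probes. Scaling by the spiked-in control RNA in its place moved every bilberry ratio by -1.54 on the log2 scale and turned 10 of 16 member signs, so every bilberry direction below is relative to the 75th percentile. An alternative background correction, normexp, turned 9 of these 16 signs, and its refit turned 0. The refit left spots with a marked local background out of the normexp fit. A ratio is a difference of levels on the log2 scale, and a probe was called past 2-fold when its linear ratio was over 2 or under 1/2. The error given by the scanner software for a log2 ratio was 0.20 to 0.21 for the member probes other than Ebf1 probe 2. It describes 1 spot on each of 2 arrays and leaves out cultures, extractions and labeling.

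Markers set the cell identity. On each of the 4 arrays, all 7 preadipocyte or fibroblast markers and all 7 adipocyte markers were well above background, which is the software's own flag for a signal clear of its local background. Of the markers of other cells, 1 of 4 leukocyte genes was well above background on each array (Csf1r), 1 of 3 endothelial genes on the DMSO array alone, 1 of 3 epithelial genes on the bilberry array alone and 2 or 3 of 3 muscle genes. Col2a1 and Acan, the 2 chondrocyte genes, passed that flag on each of the 4 arrays. Csf1r had a log2 ratio of 1.16 with bilberry extracts, 0.26 with delphinidin and 0.53 with cyanidin. Ptprc, which marks leukocytes, and Cdh5, which marks endothelium, had no array on which they were well above background. Among the preadipocyte markers the median log2 ratio to DMSO was -0.21 with bilberry extracts, -0.15 with delphinidin and -0.19 with cyanidin, and among the adipocyte markers it was 0.02, 0.20 and 0.32. Single markers moved further, with Ly6a at -2.13, -2.25 and -1.08 in that order, Thy1 at -1.20 with bilberry extracts and the adipocyte gene Adipoq at -1.07 with bilberry extracts. These were the markers of both lists past 2-fold. The part of cell state in the member values was not tested.

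The members act at the exit from the preadipocyte state. DLK1, also called PREF-1, is a membrane protein whose shed ectodomain restrains differentiation and keeps SOX9 expressed, while SOX9 occupies and represses the genes of early C/EBP factors. GATA2 and GATA3 are zinc finger factors of preadipocytes that repress the Pparg promoter, and HES1 is the basic helix-loop-helix repressor downstream of Notch. EBF1 and EBF2 act on the opposite side by activating adipogenic genes, EBF2 above all in brown and beige fat. STAT5A and STAT5B carry the signal of growth hormone and prolactin and are induced during adipogenesis, and FOXO1 is the forkhead factor that insulin removes from the nucleus through AKT.

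The stretches before the transcription start of the members are shown for 3 genes, Gata2 because both of its probes were lower on every treated array, Dlk1 because its 2 probes had the same order over the arrays, and Foxo1 because its target letters were among those searched. They are RefSeq sequences of 250 bases upstream of the start on GRCm38.p6, which is not the mm8 build of the array's coordinates. Capitals mark matches on either strand. The letters searched for GATA factors were AGATAA. For STAT5 they were TTCNNNGAA, and for FOXO factors they were GTAAACA. The EBF letters were CCCNNGGG, which read the same on both strands. The N-box bound by HES proteins was searched as CACNAG. RBPJ, the DNA-binding partner of Notch, was searched as GTGGGAA.
Dlk1, chr12:109452573-109452822, plus strand: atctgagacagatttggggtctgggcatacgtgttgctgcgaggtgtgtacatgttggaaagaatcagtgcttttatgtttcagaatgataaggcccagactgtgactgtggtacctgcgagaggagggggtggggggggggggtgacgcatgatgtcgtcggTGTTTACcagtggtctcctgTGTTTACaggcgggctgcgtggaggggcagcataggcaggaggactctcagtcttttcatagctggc
Gata2 start 1, chr6:88193641-88193890, plus strand: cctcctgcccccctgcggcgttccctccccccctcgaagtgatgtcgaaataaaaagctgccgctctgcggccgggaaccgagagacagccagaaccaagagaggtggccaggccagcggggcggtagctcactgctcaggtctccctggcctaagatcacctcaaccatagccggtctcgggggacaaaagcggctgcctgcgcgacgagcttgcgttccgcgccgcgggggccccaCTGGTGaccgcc
Gata2 start 2, chr6:88198414-88198663, plus strand: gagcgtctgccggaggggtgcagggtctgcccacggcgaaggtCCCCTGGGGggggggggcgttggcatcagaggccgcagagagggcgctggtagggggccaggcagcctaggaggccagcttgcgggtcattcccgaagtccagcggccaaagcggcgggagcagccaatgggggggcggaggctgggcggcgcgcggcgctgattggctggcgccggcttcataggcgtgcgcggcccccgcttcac
Foxo1, chr3:52268087-52268336, plus strand: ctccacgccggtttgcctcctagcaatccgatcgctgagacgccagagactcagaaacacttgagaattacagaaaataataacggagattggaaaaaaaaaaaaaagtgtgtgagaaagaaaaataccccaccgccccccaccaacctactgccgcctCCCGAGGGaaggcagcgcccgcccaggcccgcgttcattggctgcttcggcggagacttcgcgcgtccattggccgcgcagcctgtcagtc

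The Dlk1 window held the FOXO letters 2 times, in their reverse form, 87 and 67 bases before the start. Those letters were present in 3.17% of 32851 windows of the same length. Start 2 of Gata2 held 2 matches to the EBF letters that overlap each other, 207 and 206 bases before the start, and the Foxo1 window held 1 at 91 bases, against 11.8% of all windows. The only match at start 1 of Gata2 was an N-box 12 bases before the start, a short pattern present in 36.7% of windows. No GATA or STAT5 letters were found in any of the 11 windows of the 7 members with an entry (Dlk1, Gata2, Gata3, Ebf1, Stat5a, Stat5b and Foxo1), and these occurred in 9.99% and 7.02% of all windows. RBPJ letters, found in 5.42% of windows, were in 1 window of Ebf1. A match is a run of letters and was not tested for binding.

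Signal was ample for the members. At least 17 of their 18 probes were well above background on every array, the exception being probe 2 of Ebf1 with DMSO and with cyanidin, and none was saturated. The software marked the local background of the only spot of Dlk1 probe 1 with bilberry extracts and with delphinidin, and of Foxo1 probe 2 with bilberry extracts. These values were left out of counts and are given here as kept.

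**Figure D1:**
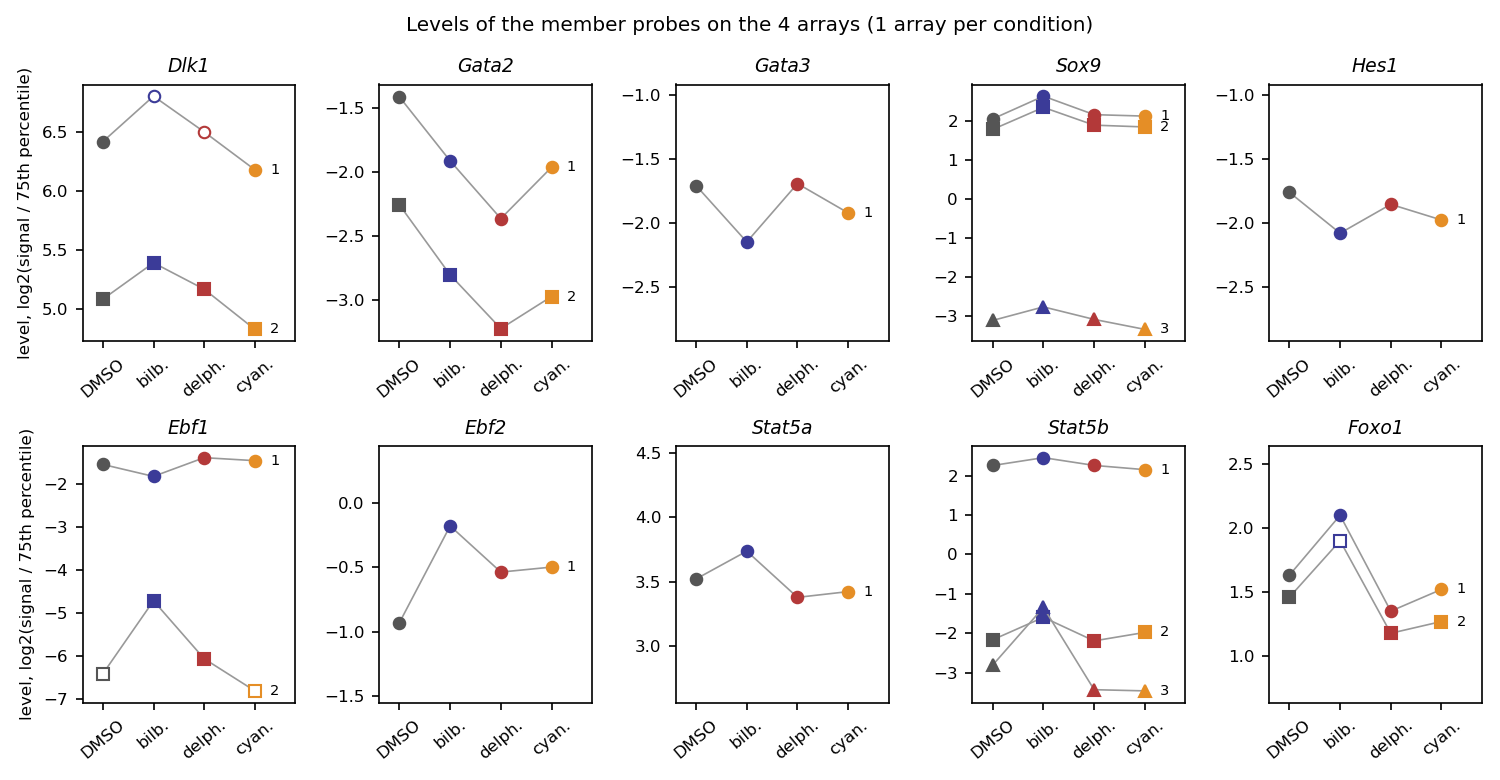
Level of each member probe, as log2 of signal over the 75th percentile of the array, on the 4 arrays (1 array per condition, no error bar). Numbers give the probe, open symbols stand for a probe not well above background or a marked spot, and vertical scales differ between genes. Under 75th percentile scaling both Gata2 probes are highest on the DMSO array, whereas both Foxo1 probes, Sox9 and Ebf2 are highest with bilberry extracts.

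Few member probes passed 2-fold. With bilberry extracts 2 of 16 probes with a value had a ratio over 2 and 0 had a ratio under 1/2, against 13.9% of all probes in either direction. Among the probes well above background on both arrays it was 1 of 15, against 11.2%. With delphinidin 0 of 17 passed, against 6.88% of all probes and 2.92% of those well above background. With cyanidin 0 of 18 passed, against 7.37% and 2.83%. Under spike-in scaling 0 of 16 bilberry ratios were over 2 and 10 were under 1/2. That scaling moved the bilberry ratio of every probe by -1.54, and the share of all probes under it is not given. The member shares under 75th percentile scaling lay near the backgrounds above, and with so few probes they carry no more than that.

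The signs of the ratios are given beside those of the whole array, which was itself shifted. With bilberry extracts 11 member probes were above DMSO and 5 below, where 68.5% of all probes and 59.8% of those well above background on both arrays were above. The median of the 15 member probes well above background was 0.31, that of all such probes 0.14 and that of all probes 0.39. With delphinidin 9 were above and 8 below, between -0.96 and 0.39, where 34.2% of all probes and 44.6% of those well above background were above, with medians of -0.19 and -0.04. With cyanidin 5 were above and 13 below, between -0.71 and 0.43, where 35.2% and 47.4% were above, with medians of -0.20 and -0.02. The ratio exceeded the software error for 15 of 16 probes with bilberry extracts, for 6 of 17 with delphinidin and for 9 of 18 with cyanidin. Among all probes well above background on both arrays it did so for 72.8%, 45.9% and 49.1%. All probes well above background on both arrays were spread more widely with bilberry extracts too, their 5th and 95th percentiles lying at -1.17 and 0.95, against -0.68 and 0.51 with delphinidin and -0.75 and 0.49 with cyanidin.

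**Figure D2:**
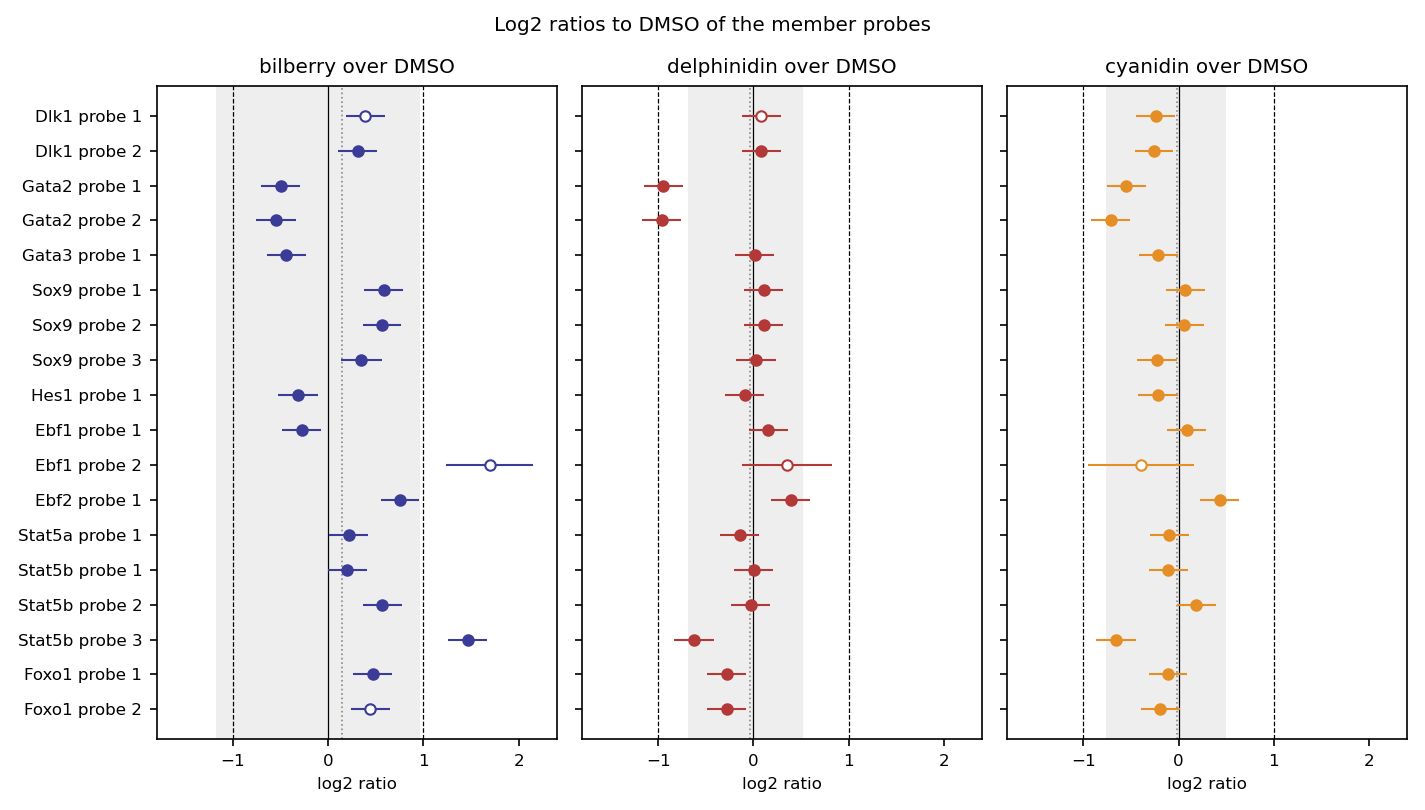
Log2 ratio to DMSO of the 18 member probes in each treatment, with the software error as bars; open symbols are marked spots or probes not well above background on both arrays. Dashed lines mark 2-fold, the grey band the 5th to 95th percentile of all probes well above background on both arrays, and the dotted line their median. Gata2 lies below the band with delphinidin at -0.95 and -0.96, and Stat5b probe 3 lies above it with bilberry extracts at 1.46.

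Gata2 had the lowest ratios of the members with delphinidin, and it was below DMSO on all 3 treated arrays. Probe 1 (chr6:88172482-88172541) had levels of -1.41 with DMSO, -1.91 with bilberry extracts, -2.36 with delphinidin and -1.96 with cyanidin. Probe 2, which lies 473 bases away (chr6:88172009-88172068), had levels of -2.26, -2.80, -3.22 and -2.97 in the same order. Both probes were thus highest with DMSO, lowest with delphinidin and between with the other additives.

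With delphinidin the log2 ratio of Gata2 was -0.95 and -0.96, a 1.93-fold and 1.95-fold lower signal, just short of the 2-fold threshold. Only 2.12% and 2.05% of probes well above background had a lower or equal ratio. With cyanidin the ratios were -0.55 and -0.71, at percentiles 9.48 and 5.63. With bilberry extracts they were -0.50 and -0.55, at percentiles 17.4 and 15.9, between the 5th percentile of -1.17 and the 25th of -0.30 of that wider distribution. With normexp the bilberry values turned to 0.46 and 0.88, and with its refit they were -0.32 and -0.21. They were -1.03 and -1.01, past 2-fold, under local centring, in which the median ratio of the neighbouring spots is subtracted, so that spot position is corrected and the array is also re-centred on all its probes. The median amount subtracted was 0.40 with bilberry extracts, -0.18 with delphinidin and -0.19 with cyanidin. With that median put back, an alternative chosen after seeing the data that changes position alone, the bilberry values were -0.63 and -0.62, short of 2-fold. The ratios of delphinidin and cyanidin stayed negative under all 10 other settings tried.

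Gata3, whose single probe lies at chr2:9775209-9775268 on the minus strand, did not follow Gata2. Its levels were -1.71 with DMSO, -2.15 with bilberry extracts, -1.69 with delphinidin and -1.92 with cyanidin. It was lower with bilberry extracts, by a log2 ratio of -0.44 that turned to 0.61 with normexp, and its ratio with delphinidin was 0.02. With cyanidin it was -0.21, about the size of the software error.

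Dlk1 lay far above the 75th percentile on every array, and its ratios to DMSO lay well inside 2-fold under this scaling. Its probe 2 (chr12:109908025-109908084) had levels of 5.08 with DMSO, 5.39 with bilberry extracts, 5.17 with delphinidin and 4.82 with cyanidin. Probe 1 (chr12:109908264-109908323) gave 6.42, 6.81, 6.505 and 6.18, of which the bilberry and delphinidin values are from marked spots. The probes lie 239 bases apart and put the arrays in the same order, bilberry highest and cyanidin lowest.

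The ratios to DMSO of Dlk1 were 0.31 and, kept, 0.39 with bilberry extracts, 0.09 and, kept, 0.08 with delphinidin, and -0.26 and -0.24 with cyanidin. Under local centring the ratios of probe 2 were -0.09 with bilberry extracts, 0.37 with delphinidin and 0.00 with cyanidin, whereas with position alone corrected they were 0.31, 0.18 and -0.20. Under spike-in scaling they were -1.23, 0.34 and -0.02, and with normexp -0.33, 0.12 and -0.24. For probe 2 each ratio to DMSO thus lay inside the software error under some settings and outside it under others.

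Under 75th percentile scaling Sox9 was higher with bilberry extracts and near DMSO with the anthocyanidins. Its bilberry ratios were at percentiles 81.4, 80.4 and 65.3 for probes 1, 2 and 3. These are percentiles of all probes well above background on both arrays, whose median ratio was itself 0.14. Probe 1 (chr11:112601784-112601843) had levels of 2.06 with DMSO, 2.64 with bilberry extracts, 2.17 with delphinidin and 2.13 with cyanidin. The ratio with bilberry extracts was 0.58, or 1.498-fold (-0.96 under spike-in scaling), and those of delphinidin and cyanidin were 0.11 and 0.07. Probe 3, a dim one whose coordinates (chr11:112599086-112599938) span 853 bases for a 60-base probe, gave ratios of 0.35, 0.03 and -0.23. Quantile normalization kept that order, with ratios of 0.41, 0.08 and 0.01 for probe 1, and so did the normexp refit, with 0.52, 0.12 and 0.08. With position alone corrected, bilberry extracts stayed highest, with 0.57, 0.09 and -0.01 for probe 1 and 0.51, 0.13 and 0.08 for probe 2. Under local centring, which also re-centres the arrays, this was lost, and probe 1 had ratios of 0.17 with bilberry extracts, 0.27 with delphinidin and 0.18 with cyanidin. The bilberry ratios after normexp were 0.03 for probe 1, 0.08 for probe 2 and 1.49, past 2-fold, for the dim probe 3.

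Probe 2 of Sox9 (chr11:112603585-112603644) was spotted 10 times and so shows the error within an array. All 10 spots were used here, with 1 marked spot kept on the DMSO array and 1 on the delphinidin array. Its level over the 10 spots was 1.79 ± 0.051 (SD, n = 10 spots) with DMSO, 2.35 ± 0.037 with bilberry extracts, 1.90 ± 0.030 with delphinidin and 1.85 ± 0.035 with cyanidin. Every bilberry spot lay above every spot of the other arrays, the lowest being at 2.30 and the highest DMSO spot at 1.88. Paired by place, the log2 ratio to DMSO over the 10 spots ran from 0.47 to 0.61 with bilberry extracts, from 0.02 to 0.19 with delphinidin and from -0.04 to 0.13 with cyanidin. These spots share 1 labeled RNA per array, so their spread covers spotting and scanning only.

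**Figure D3:**
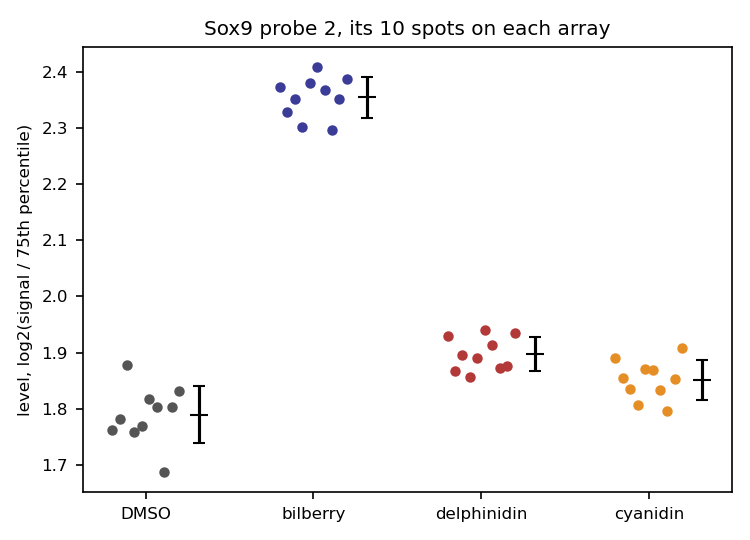
Level (log2 of signal over the 75th percentile) of each of the 10 spots of Sox9 probe 2 on the 4 arrays, marked spots kept, with mean ± SD over spots at the right of each group. The bilberry spots lie between 2.30 and 2.41, and no spot of the other arrays lies above 1.94. All spots of an array are divided by the same 75th percentile.

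Hes1 was read by 1 probe (chr16:29985644-29985939). It had levels of -1.76 with DMSO, -2.08 with bilberry extracts, -1.86 with delphinidin and -1.98 with cyanidin. All 3 treated arrays lay below DMSO, by log2 ratios of -0.32 (0.65 with normexp), -0.09 and -0.22. The delphinidin value is inside the software error, and the values of delphinidin and cyanidin turned positive or reached 0 under scaling by spike-in RNA and under local centring, whereas with position alone corrected they were -0.05 and -0.19.

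Ebf2 was higher on all 3 treated arrays. Its probe (chr14:66383418-66383477) had levels of -0.93 with DMSO, -0.18 with bilberry extracts, -0.54 with delphinidin and -0.50 with cyanidin. The ratios were 0.75 with bilberry extracts (1.69-fold), 0.39 with delphinidin (1.31-fold) and 0.43 with cyanidin (1.35-fold), at percentiles 89.8, 92.1 and 93.4 of probes well above background. Each ratio exceeded the software error, and none reached 2-fold. The anthocyanidin values stayed positive under all 10 other settings, whereas the bilberry value was -0.79 under spike-in scaling. Under local centring the order was different, with ratios of 0.32 with bilberry extracts, 0.62 with delphinidin and 0.69 with cyanidin, and with position alone corrected bilberry extracts were again highest, with 0.72, 0.44 and 0.49.

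Ebf1 gave different pictures with its 2 probes. Probe 1, designed on the RefSeq transcript (chr11:44848286-44848345), had levels of -1.55 with DMSO, -1.83 with bilberry extracts, -1.39 with delphinidin and -1.46 with cyanidin. Its ratios were -0.28 (0.53 with normexp), 0.16 and 0.09. Probe 2, designed on a cDNA clone (AK accession) and placed 355747 bases away (chr11:44492539-44492598), was well above background with bilberry extracts and delphinidin only.

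The signals of Ebf1 probe 2 were 10.1 with DMSO, 21.9 with bilberry extracts, 15.1 with delphinidin and 9.05 with cyanidin, all very dim. The DMSO signal was not well above background, so the ratios to it have no firm size. With the DMSO signal taken as measured, the signal scaled by the 75th percentile was 3.24-fold higher with bilberry extracts, which is no lower bound. With delphinidin the measured log2 ratio of 0.35 lay inside its software error of 0.47. The measured log2 ratio with bilberry extracts was 1.70 with a software error of 0.46. The bilberry ratio did not stay past 2-fold under every setting, and was 0.78 with the normexp refit and 0.15 under spike-in scaling. The delphinidin ratio turned to -0.11 with normexp and -0.12 with the refit.

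Stat5a and Stat5b sit side by side on chromosome 11 and encode the closely related signal transducers. The Stat5a probe (chr11:100700920-100700979) had levels of 3.52 with DMSO, 3.74 with bilberry extracts, 3.38 with delphinidin and 3.42 with cyanidin. Its ratios were 0.22, -0.14 and -0.10, and each changed sign under spike-in scaling and under local centring, but kept it with position alone corrected, at 0.19, -0.16 and -0.17. Stat5b probe 1 (chr11:100596875-100596934, minus strand) was as flat, with levels of 2.26, 2.46, 2.26 and 2.15 and ratios of 0.20, 0.00 and -0.11.

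The other Stat5b probes departed from probe 1. Probe 2 (chr11:100603430-100604478), which spans 1049 bases, had levels of -2.17 with DMSO, -1.60 with bilberry extracts, -2.20 with delphinidin and -1.98 with cyanidin, and ratios of 0.57, -0.03 and 0.19. Probe 3 lies 40621 bases from probe 1 (chr11:100637496-100637555) and was designed on a cDNA clone (AK accession). Its levels were -2.81 with DMSO, -1.35 with bilberry extracts, -3.44 with delphinidin and -3.47 with cyanidin.

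Stat5b probe 3 had the widest range of the members well above background on all arrays, 2.12 on the log2 scale, and moved opposite ways in the treatments. Its signal was 227 with bilberry extracts against 123 with DMSO, 93.3 with delphinidin and 92.0 with cyanidin. The log2 ratio with bilberry extracts was 1.46 (2.76-fold), at percentile 99.0 (-0.078 under spike-in scaling), and the ratios with delphinidin and cyanidin were -0.63 and -0.66, at percentiles 6.01 and 6.71. It was the only member probe past 2-fold that was well above background on both arrays. Whether it reads the Stat5b messenger or another transcript of that region was not tested, since no annotation of mm8 was used.

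Both member probes past 2-fold were the ones on AK cDNA clones, and this was looked at after their values were seen. Among all probes well above background on all 4 arrays, 6.28% of AK cDNA probes and 3.55% of RefSeq probes were more than 2-fold higher with bilberry extracts. In bin 2 of 4 by mean signal, counted from the dimmest, where Stat5b probe 3 lies, the shares were 4.09% and 3.25%. In that bin the AK cDNA probes had median log2 ratios of 0.10 with bilberry extracts, -0.20 with delphinidin and -0.22 with cyanidin, and RefSeq probes had -0.03, -0.03 and 0.00. Their part in the Stat5b value was not tested.

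**Figure D4:**
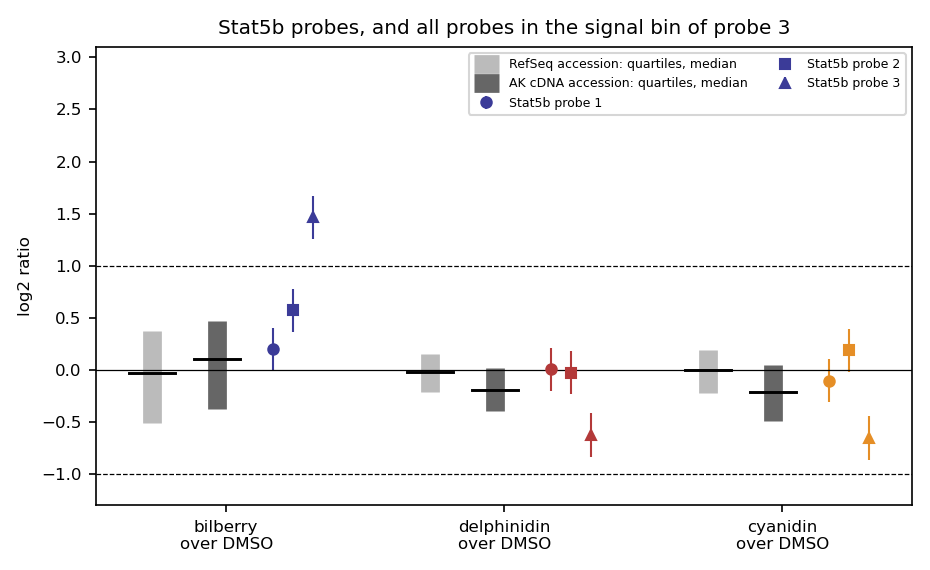
Log2 ratio to DMSO of the 3 Stat5b probes (symbols, with the software error as bars) beside all probes of signal bin 2, split by accession; thick bars span the quartiles and black lines mark medians. Dashed lines mark 2-fold. Probe 3 is at 1.46, -0.63 and -0.66, outside the quartiles of both classes, while probe 1 stays within 0.20 of DMSO.

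The 3 genes whose ratios were closest to those of Stat5b probe 3, among 12987 genes clear of background throughout, were Gpr37l1, Casp14 and Efcab1. Closeness was the Euclidean distance over the 3 ratios to DMSO, at 0.16, 0.34 and 0.34. Gpr37l1, an orphan G protein-coupled receptor, had ratios of 1.55 with bilberry extracts, -0.52 with delphinidin and -0.74 with cyanidin.

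Under 75th percentile scaling Foxo1 was higher with bilberry extracts and lower with delphinidin. Probe 1 (chr3:52437296-52437355) had levels of 1.63 with DMSO, 2.10 with bilberry extracts, 1.35 with delphinidin and 1.52 with cyanidin. Probe 2, 3106 bases away (chr3:52434190-52434249), gave 1.46, 1.90 (marked spot, kept), 1.18 and 1.27. The probes put the 4 arrays in the same order.

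The bilberry ratios of Foxo1 were 0.47 and, kept, 0.44, at percentiles 73.9 and 72.0 of probes well above background on both arrays. The delphinidin ratio was -0.28 for both probes, at percentiles 22.2 and 22.1. With cyanidin the ratios were -0.11 and -0.19, inside the software error. The bilberry ratio of probe 1 was -0.01 with normexp and -1.07 with spike-in scaling, so its direction depends on the background correction and on the scaling, although quantile normalization kept it at 0.31. The delphinidin ratios shrank to -0.022 and -0.023 under spike-in scaling and to -0.035 and -0.065 under local centring, all inside the software error, and were -0.22 and -0.25 with position alone corrected.

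At matched dose and day, delphinidin and cyanidin were compared with each other in 1 pair of arrays. None of 17 member probes passed 2-fold (0 of 17), against 6.36% of all probes and 1.16% of those well above background on both arrays. Delphinidin was above cyanidin for 10 probes and below for 7, where 40.1% of all probes and 46.9% of those well above background were above. The ratio exceeded the software error for 7 of 17 member probes, against 23.8% of all probes and 31.0% of those well above background. Dlk1 was higher with delphinidin, by 0.34 for probe 2 and, kept, 0.32 for probe 1, at percentiles 91.2 and 90.1. Gata2 was lower with delphinidin, by log2 ratios of -0.40 and -0.25, at percentiles 4.19 and 11.5. Ebf1 probe 2, not well above background with cyanidin, had a measured signal 1.68-fold higher with delphinidin, which is no lower bound. With normexp its log2 ratio was 0.21. Sox9 probe 2 differed by 0.05 ± 0.025 (SD, n = 10 spots, marked spot kept). With 1 array each, an interval for the difference between the compounds cannot be given, and a small ratio does not show that they act alike.

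The pathways around the members were followed with lists chosen with earlier results of these data known, so their counts and medians are no test. They held 174 related genes, of which 169 had a value. With bilberry extracts 9 were more than 2-fold higher and 9 lower, against 7.07% and 7.19% of all named genes. With delphinidin 4 were higher and 3 lower, against 2.86% and 4.65%. With cyanidin 1 was higher and 3 were lower, against 2.44% and 5.63%. Of these, 5 and 6 (bilberry extracts), 1 and 2 (delphinidin) and 1 and 2 (cyanidin) were well above background on both arrays. The genes given with values below come from them, except Stat4, which was not well above background with DMSO. The others past 2-fold with delphinidin were Stat4, Gata5, Lfng and Maml3 and with cyanidin Hes3, named after their values were seen, each too dim on at least 1 array of its ratio.

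In the Notch and DLK1 list, 0 of 30 measured genes were over 2-fold with bilberry extracts and 3 were under 1/2, of which only Adam10 was well above background on both arrays and Jag2 and Hes5 were not. With delphinidin 1 was over and 1 under, neither well above background on both arrays, and with cyanidin 0 were over and 3 under, 2 of them well above background. The shares of all named genes are those given above, such as 7.19% lower with bilberry extracts. Adam10, a sheddase that cleaves Notch receptors, had a ratio of -1.20 with bilberry extracts. The receptor gene Notch3 had ratios of -0.83 with bilberry extracts, -0.87 with delphinidin and -1.04 with cyanidin, the last of which was -0.81 under spike-in scaling and -0.94 with normexp. The target gene Hes5 had a ratio of -1.17 with cyanidin, and of -0.93 under spike-in scaling or quantile normalization and -0.46 with normexp, so neither call held throughout. With normexp the Adam10 ratio turned to 0.33.

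Among 7 GATA factors and partners, Zfpm1, which encodes the GATA cofactor FOG1, had a ratio of 1.33 with bilberry extracts, against -0.22 under spike-in scaling. Of 18 other SOX genes, 8 were well above background with bilberry extracts, and Sox14 had the highest ratio among them, 1.53, against -0.01 under spike-in scaling. Of 8 SOX9 targets, 1 passed 2-fold in any treatment, the cartilage collagen gene Col11a2 with a ratio of -2.31 with bilberry extracts (-0.82 with normexp). The median of the 5 SOX9 targets well above background was -0.75 with bilberry extracts, 0.10 with delphinidin and 0.08 with cyanidin, against 0.17, -0.05 and -0.02 for all named genes so filtered. Over all 8 SOX9 targets the medians were -0.03, 0.00 and -0.32, against 0.43, -0.20 and -0.20 for all named genes. Of the 6 EBF and zinc finger commitment factors, 0 passed 2-fold in any treatment.

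Among the 17 receptors, kinases and STATs of the JAK-STAT pathway, 1 was more than 2-fold higher with bilberry extracts (Stat4) and 2 were more than 2-fold lower (Jak2 and Jak3), against 7.07% and 7.19% of all named genes. Jak2, the kinase of the growth hormone receptor, had a ratio of -1.29 with bilberry extracts, -0.78 with delphinidin and -0.49 with cyanidin. Jak3, better known from lymphocytes, had -1.68, -1.07 and -0.60. The Jak2 value with bilberry extracts was -1.28 under normexp, whereas that of Jak3 was 0.07. The delphinidin value of Jak3 was -0.82 under spike-in scaling and -0.88 with normexp, short of 2-fold. Stat4, a transducer of interleukin 12 signals named after its value was seen, was well above background with bilberry extracts only. It was dim with DMSO, with levels of -8.29 with DMSO and -4.76 with bilberry extracts. With the DMSO signal taken as measured it was 11.6-fold higher with bilberry extracts, which is no lower bound. The log2 ratio was 2.00 under spike-in scaling and 0.93 with the normexp refit. Of the 17 JAK-STAT inhibitors, 0 passed 2-fold in any treatment.

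The STAT5 targets well above background, 10 genes, had medians of -0.28 with bilberry extracts, -0.55 with delphinidin and -0.35 with cyanidin, against 0.17, -0.05 and -0.02 for all named genes so filtered. Over all 11 STAT5 targets the medians were -0.23, -0.53 and -0.30, against 0.43, -0.20 and -0.20 for all named genes. As the list was chosen with earlier results known, these medians do not test STAT5 activity. Beside these medians, Ccnd1, the cyclin D1 gene, was higher in all 3 treatments, with ratios of 1.498, 1.53 and 1.28. Under spike-in scaling its anthocyanidin values were 1.79 and 1.51, and its bilberry value was -0.04. Igf1, a growth hormone target, had ratios of -1.08 with bilberry extracts (-0.28 with normexp) and -0.77 with delphinidin. Ccnd1 is also in the FOXO target list, where it was the only one of 18 measured genes past 2-fold in any treatment.

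Of 12 FOXO factors and regulators, 1 passed 2-fold with bilberry extracts (Sgk3, lower and not well above background on both arrays, named after its value was seen) and 0 with the anthocyanidins. Among 31 other regulators of commitment, E2f1, a cell cycle factor, had a ratio of 1.24 with bilberry extracts and Trib3, a pseudokinase that binds AKT, had 1.13. Ccn5, a secreted WNT-induced protein also called WISP2 that holds precursor cells back, had ratios of -1.33 with bilberry extracts (-0.45 with normexp) and -1.42 with delphinidin. Under spike-in scaling E2f1 and Trib3 turned to -0.30 and -0.41.

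**Figure D5:**
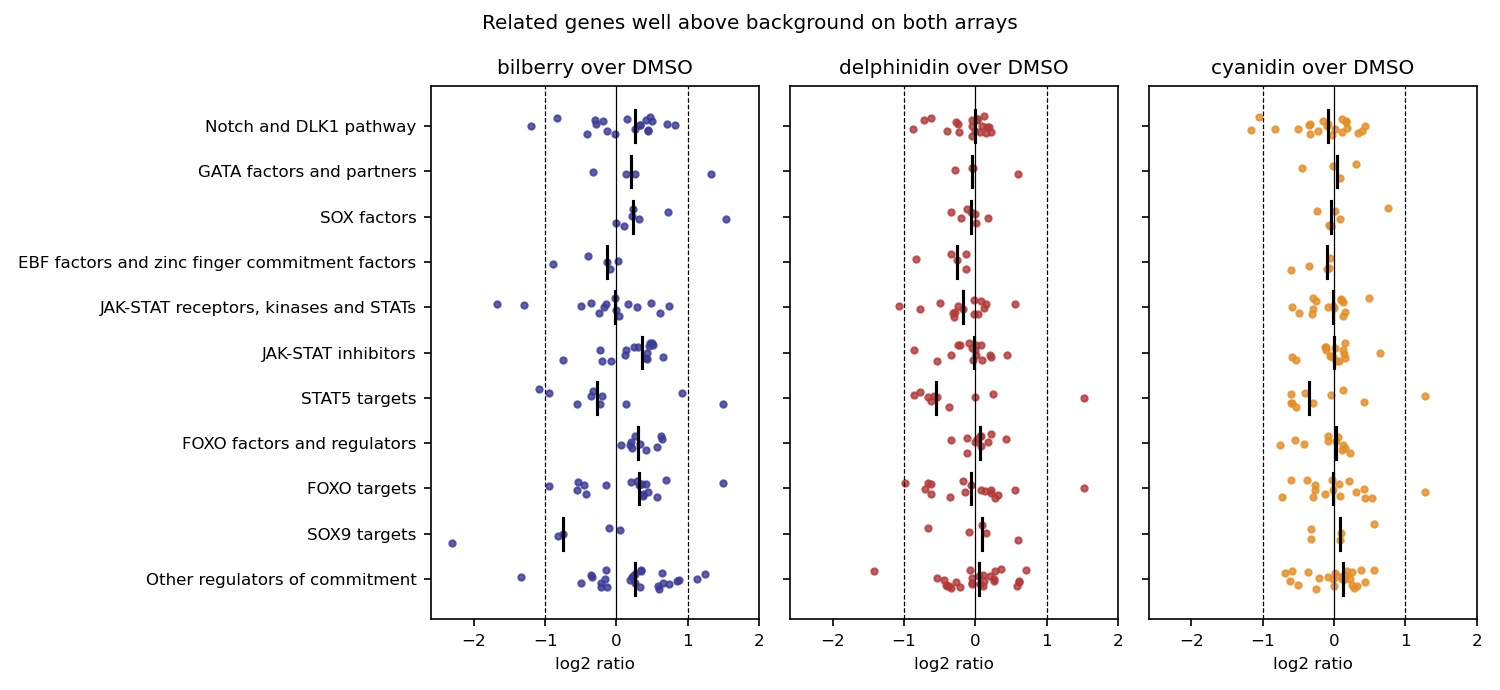
Log2 ratio to DMSO of related genes well above background on both arrays, 1 point per gene and 1 row per list, with the median as a black bar and 2-fold as dashed lines; vertical scatter within a row is for display. Most genes lie inside 2-fold; Ccnd1 is the point right of the line in all 3 panels, at 1.498, 1.53 and 1.28, in the STAT5 and FOXO target rows.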

How the data were processed

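RNA of 3T3-L1 cells on day 2 was measured on 1 Whole Mouse Genome array per condition. The authors labeled 0.5 µg total RNA with Cy3 and deposited Feature Extraction output, in which the processed signal is an intensity after removal of local background and spatial trend. The deposited values carry no scaling between arrays, and coordinates are on mm8. A deposited series table held the same intensity (largest relative difference 0).

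Levels here are log2 of the processed signal minus log2 of its 75th percentile over 43379 spots, controls excluded. Spots marked as outliers were left out (701 to 875 per array) and replicate spots averaged. Names were read from the files or, in 24375 cases, through the probe's RefSeq accession. In the lists, the brightest probe by mean signal stood for a gene. Genes named by rule were all members and the 3 genes closest to the most variable member probe. At most 2 highest and 2 lowest per list and treatment were added, among genes past 2-fold and well above background on both arrays. Stat4, Gata5, Lfng, Maml3, Hes3, Jag2 and Sgk3 were named outside that rule, past 2-fold but not well above background on both arrays. Cell markers were named as well. Members and lists were chosen with earlier results of these data known. The scripts were tested on simulated data. With 1 array per condition the number of arrays limits the precision. Alternatives were normexp (limma 3.58.1, R 4.3.3, offset 50), its refit with marked local backgrounds left out of the fit, quantile normalization and spike-in scaling. Others were a local trend over 10 rows and columns (also with the array median put back, chosen after seeing the data), detection filters and other folds. Values were computed with Python 3.11.15.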

Additional observations from a re-analysis of the deposited data

How the results depend on the processing

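The number of member probes past 2-fold with bilberry extracts was 2, both higher. It was 1 when only probes well above background on both or on all 4 arrays counted, 1 with the normexp refit and 1 at 3-fold. With normexp it was 4, all higher. After the local trend was removed it was 4, 2 higher and 2 lower. This also re-centres the array, and with the array median put back, an alternative chosen after seeing the data, it was 2. Under spike-in scaling it was 10, all lower and without the original 2. At 1.5-fold it was 3 for delphinidin, 2 for cyanidin and 1 for delphinidin over cyanidin, each 0 at 2-fold. Spike-in scaling shifted all ratios by -1.54 with bilberry extracts, 0.26 with delphinidin and 0.23 with cyanidin, and turned the sign of 10 of 16, 3 of 17 and 7 of 18 member probes. It also reversed Stat5b probe 3 with bilberry extracts, to -0.078. Normexp turned 9 of 16 bilberry signs, and the refit 0 of 16. The cause was not tested. Shares over all probes or genes are given only at 2-fold under 75th percentile scaling. Counts under other scalings, background corrections or folds, here and for the related genes below, have no such share beside them.

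Of the related genes, 18 passed 2-fold with bilberry extracts, and 11 with either detection filter, 70 with normexp, 8 with the refit, 126 under spike-in scaling, 47 at 1.5-fold and 6 at 3-fold. For delphinidin 7 passed, and 3 with either filter, 2 with normexp and with the refit, 31 at 1.5-fold and 1 at 3-fold. For cyanidin 4 passed, and 2 with the filter on all 4 arrays, 1 with normexp and with the refit, 2 with quantile normalization, 1 under spike-in scaling, 2 after the local trend was removed, 22 at 1.5-fold, 0 at 3-fold and 8 when the dimmest probe stood for a gene. No paired analysis was possible because each condition has 1 array.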
